A study of Drosophila melanogaster with 8 samples.

Results

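Binding of Dll and Sp1 in leg discs was described at *thickveins* (*tkv*) and *schnurri* (*shn*), a pair of genes through which cells respond to Dpp. The *tkv* locus was taken as the 65.0 kb from 5210000 to 5275000 on chromosome arm 2L (dm3). The *shn* locus was taken as the sequence within 20 kb of the intersection regions to which *shn* is the nearest gene, which gave 55.987 kb from 7049175 to 7105162 on 2R. Every ChIP-seq peak that overlapped these windows was kept, which gave 93 of the 22169 peaks in the lists of both factors. Of these, 47 lay at *tkv* (30 Dll and 17 Sp1 peaks) and 46 at *shn* (21 Dll and 25 Sp1 peaks). Both windows were drawn with the peaks known, and the *shn* window rests on regions that had to hold a peak of both factors. The number of peaks in the windows and the overlap at those regions are therefore given by the choice of loci and were not tested.

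Dpp, a BMP ligand, is secreted from dorsal cells of the leg disc and acts together with Wg from ventral cells to set up the proximo-distal axis. Thickveins is the type I receptor that phosphorylates the Smad protein Mad once Dpp is bound, and the amount of receptor on the surface also limits how far the ligand spreads. Schnurri is a large zinc finger protein that joins Mad and its partner Medea on DNA and represses target genes such as *brinker*. Dll is a homeodomain protein that specifies distal appendages, and Sp1 is a zinc finger protein that promotes leg growth and identity together with its relative Buttonhead.

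In ChIP-seq, an antibody pulls down chromatin with the protein of interest, and its DNA is sequenced beside unselected input. Dll was precipitated with anti-Dll from *yw* larvae (3 ChIP libraries, 1 input library), and Sp1 with anti-GFP from Sp1-GFP (BAC) larvae, which carry GFP-tagged Sp1 on a BAC transgene (3 ChIP libraries, 1 input library). Both sets were wandering L3 larvae, and each pool combined all 6 leg discs of 100 larvae, so the discs of all thoracic segments and every cell type of the disc are averaged. Peaks were called on merged libraries, and the methods describe pools in triplicate but merged reads of duplicates, so which libraries of the 3 were merged is unclear, replicates cannot be compared and the depth is unknown.

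Each peak carries the authors' −log10 q value, where a higher value means stronger evidence of an excess over input and not a measured amount of binding. Both lists begin at 4.00. Strong and weak refer to this value throughout. Peaks were ranked by value within the list of 1 factor, as a percentile rank from 0 to 100. Cuts at higher values were used as alternatives, and the values of Dll and Sp1 were not taken as a common scale. An absent peak means only that no call passed the threshold. The lists hold coordinates and no gene models, and a gene annotation and sequence of that build were not used here, so peaks are placed by coordinates and not by exon, intron or promoter. In the RefSeq gene table of a later release, used for names and neighbours only, 7 other genes are nested within *tkv*, among them the cytochrome P450 genes *Cyp4ac1*, *Cyp4ac2* and *Cyp4ac3*. No gene is nested within *shn*. A peak in either window is not shown to act on *tkv* or *shn*.

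The *tkv* locus held a Dll peak with the second highest value of the whole list. This peak, from 5236128 to 5238239 (2111 bp), had a −log10 q of 55.84, against a list maximum of 60.31. It covered 3 Sp1 peaks wholly, at 5236645 to 5237204 (18.09), 5237320 to 5238054 (26.03) and 5238134 to 5238221 (5.60), which together filled 65.4% of it. The Sp1 peak at 26.03 was the highest of its factor at *tkv* and stood in place 178 of 9850. The highest values of both factors at *tkv* thus lay in the same 2111 bp. No intersection region of the study lay there, although such regions were defined from both peak lists together with FAIRE accessibility and motif matches for Dll, Sp1, Pan and Mad. Accessibility and motifs were not analysed here.

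The only intersection region of *tkv*, from 5252933 to 5253761, lay further along the arm, inside the second longest of all 12319 Dll peaks. That Dll peak ran from 5251738 to 5255655 (3917 bp) and had a −log10 q of 36.72, in place 51 of its list. It covered 5 Sp1 peaks, which filled 69.3% of it. Their values in the order of the chromosome were 13.24, 17.27, 12.56, 16.45 and 13.31. The region had the same coordinates as the third of these, which had the lowest value of the 5 and was the longest at 828 bp. In the whole list, 0.349% of Dll peaks were overlapped by 5 or more Sp1 peaks.

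Only 1 other Dll peak at *tkv* was in the highest 10% of its list. It ran from 5251161 to 5251675, just before the 3917 bp peak, with a value of 17.25, and it held an Sp1 peak at 7.68. The 3 strongest Dll peaks therefore lay at only 2 places, and the remaining 27 Dll peaks had values from 4.03 to 14.71. The lowest was at 5258308 to 5258620. Among the Sp1 peaks, 4 of 17 were in the highest 10% of their list, all inside the 2 longest Dll peaks, and the lowest, at 5256503 to 5256673, had a value of 4.53. The whole lists place 10.1% of Dll and 9.89% of Sp1 peaks in this class, since tied values are kept together.

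**Figure D1:**
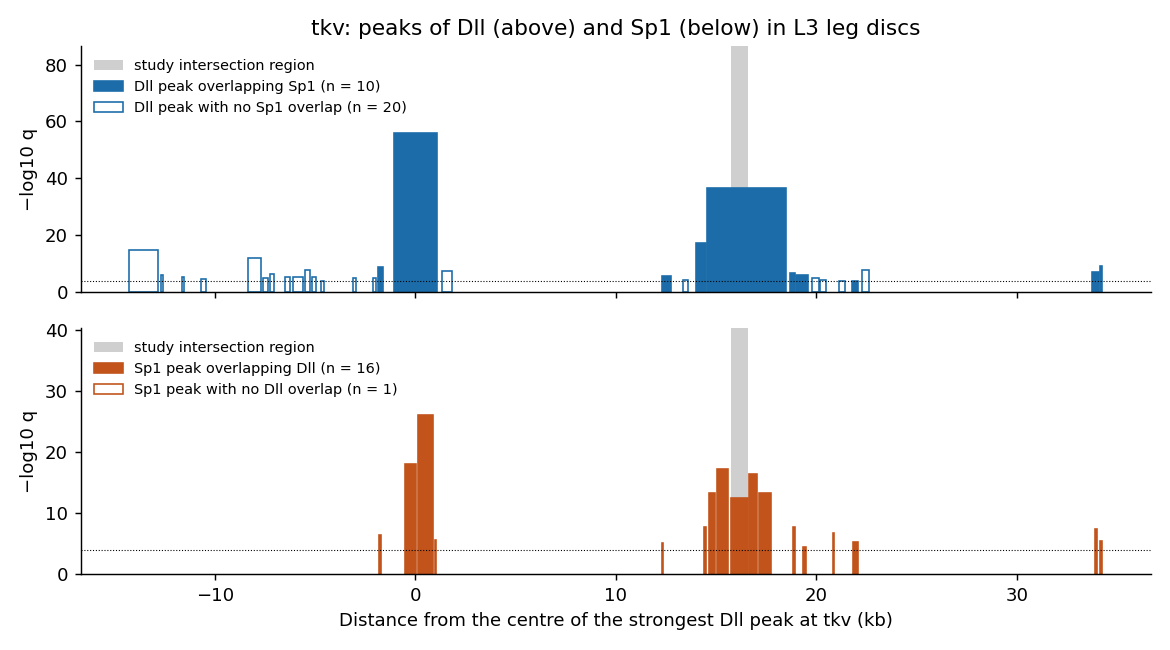
Peaks at *tkv* by distance from the centre of the strongest Dll peak (kb) and −log10 q, with 30 Dll peaks above and 17 Sp1 peaks below (each bar as wide as its peak, filled where it overlaps the other factor and open where not, dotted line at 4.00, grey band for the intersection region). Dll peaks with no Sp1 overlap fill the left end, and the highest bars are 55.84 for Dll and 26.03 for Sp1 near 0 kb.

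Mostly weak Dll peaks without Sp1 made up the lower end of the *tkv* series, which began 12905 bp inside the window. The first 14 Dll peaks, from 5222905 to 5235234, were spread over 12329 bp in which no Sp1 peak was called. Their median −log10 q was 5.44. The highest of them, from 5222905 to 5224357 (1452 bp), had a value of 14.71, at percentile 85.6, and was the strongest Dll peak at *tkv* with no Sp1 overlap. The next highest of the 14 had a value of 11.88, at percentile 77.8. The other 16 Dll peaks had a median of 6.89 and included all 10 that Sp1 overlapped. The division of the locus at this point was made after the values were seen.

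At *shn* the highest value of each factor lay at an intersection region. The highest Dll peak, from 7069972 to 7070611 (639 bp), had a −log10 q of 28.61, in place 171 of its list. The Sp1 peak at 7069994 to 7070614 covered 96.6% of it and had a value of 22.40, in place 283. The segment they share, 617 bp long, is the third intersection region of *shn*. The highest Sp1 peak of the locus lay further along the arm, at 7084800 to 7085424, with a value of 27.90, in place 144. A Dll peak of 22.39 enclosed it, from 7084733 to 7085525, in place 499, and the fourth region, 7084800 to 7085162, took 362 of its 624 bp. These close pairs carried the highest values of the locus for both factors, apart from 1 Dll peak.

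That Dll peak, from 7089727 to 7091589, had a value of 23.89, in place 399, and held no intersection region. At 1862 bp it was the longest Dll peak at *shn*, and 4 Sp1 peaks lay wholly inside it with values of 9.68, 6.75, 11.83 and 11.09. The peak at 11.83, from 7090739 to 7090916, was the third highest Sp1 peak of the locus. Long Dll peaks with several small Sp1 peaks were frequent at *shn*. Another 2 Dll peaks held 4 Sp1 peaks each. One, from 7085588 to 7086886, had a Dll value of 20.82 and Sp1 values of 10.38, 9.01, 5.25 and 5.83. The other, from 7071581 to 7073406, had a Dll value of 14.32 and Sp1 values of 6.45, 7.05, 7.68 and 11.22. Altogether 3 of 21 Dll peaks were overlapped by 4 or more Sp1 peaks, against 0.901% of the whole list.

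The first and second intersection regions of *shn*, 7069175 to 7069515 and 7069768 to 7069904, shared 1 Dll peak. It ran from 7068415 to 7069904 with a −log10 q of 18.25, in place 998. The Sp1 peaks at these regions were moderate, with 8.32 at the first and 7.34 at the second, at percentiles 67.9 and 59.5. Together with the third region they lay within 1436 bp, and 14189 bp separated them from the fourth. The Sp1 values at the 4 regions thus ran from 7.34 to 27.90, and the Dll values from 18.25 to 28.61.

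**Figure D2:**
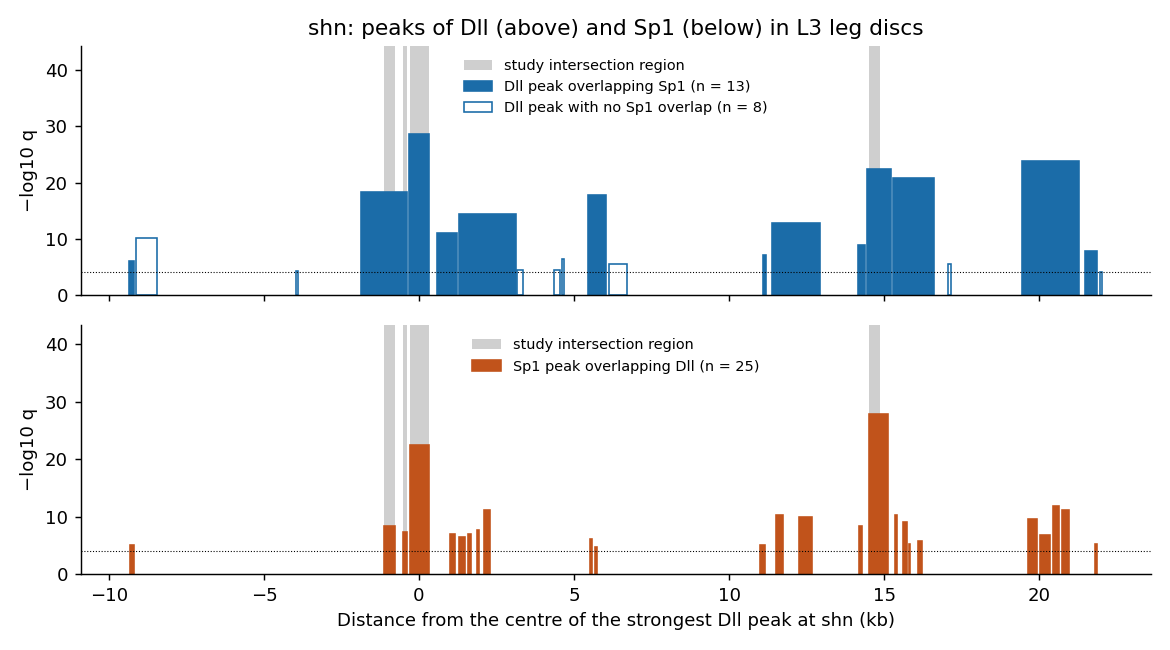
Peaks at *shn* by distance from the centre of the strongest Dll peak (kb) and −log10 q, with 21 Dll peaks above and 25 Sp1 peaks below (each bar as wide as its peak, filled where it overlaps the other factor and open where not, dotted line at 4.00, grey bands for the 4 intersection regions). Every Sp1 bar is filled, and the highest Sp1 bars, 27.90 and 22.40, stand on intersection regions.

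Part of the Dll binding at both loci lay apart from Sp1. At *tkv*, 10 of 30 Dll peaks were overlapped by Sp1, or 33.3% (95% Wilson interval 19.2 to 51.2). At *shn* it was 13 of 21, or 61.9% (40.9 to 79.2), and in the whole list 43.1%. The intervals cover counting error only and take neighbouring peaks as independent. Both windows were also drawn with the peaks known, so a difference between the loci was not tested and none is claimed. The share at *tkv* also follows from where its window ends, since in the 40.828 kb within 20 kb of its region 10 of 18 Dll peaks, or 55.6%, were overlapped.

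Few Sp1 peaks in the windows lay apart from Dll. At *tkv*, 16 of 17 Sp1 peaks overlapped a Dll peak (94.1%, interval 73.0 to 99.0), and at *shn* all 25 did (100%, interval 86.7 to 100). In the whole list the share was 72.1%, and the median over the 339 genes described further on was 85.7%, with *tkv* in place 123 and *shn* tied with others at 100%. With the *tkv* window widened by 10 kb on each side, the share was 81.0% of 21 Sp1 peaks. The exception at *tkv*, from 5258008 to 5258077, had a value of 6.75 and lay 231 bp from the nearest Dll peak. Most Sp1 peaks were enclosed by Dll, as 16 at *tkv* and 22 at *shn* lay wholly within a Dll peak, against 58.5% of the whole list. No Sp1 peak at either locus overlapped 2 or more Dll peaks, which 0.975% of the whole list did.

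The shared sequence was thus nearly all of that in Sp1 peaks and a minor share of that in Dll peaks. At *tkv*, 5044 bp were shared, which is 32.2% of the sequence in Dll peaks and 98.7% of that in Sp1 peaks. At *shn*, 4922 bp were shared, or 36.4% and 98.3%. In the whole lists these shares were 27.7% for Dll and 76.1% for Sp1. Dll peaks held 3.06 times as much sequence as Sp1 peaks at *tkv*, 2.70 times at *shn* and 2.75 times in the whole lists. These lengths alone keep the Dll share a minor one, even where Sp1 peaks lie wholly within Dll peaks. Dll peaks were also longer, with medians of 278 bp at *tkv* and 565 bp at *shn*, than Sp1 peaks, with 170 bp at *tkv* and 144 bp at *shn*. The whole lists have medians of 293 bp for Dll and 130 bp for Sp1. The median Dll peak was longer than that of the list at *shn* and not at *tkv*.

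Several Sp1 peaks could share a Dll peak, and the share of Dll peaks with 2 or more was below that of the list at *tkv* and above it at *shn*. At *tkv* 2 of 30 Dll peaks were overlapped by 2 or more Sp1 peaks (6.67%), and at *shn* 6 of 21 (28.6%), against 11.0% of the whole list. Because of this the 16 overlapping pairs at *tkv* come from 10 Dll peaks, and the 25 at *shn* from 13. The Sp1 peak lay wholly within the Dll peak in 16 of the 16 pairs at *tkv* and 22 of the 25 at *shn*, against 80.1% of all pairs. An intersection region was held by 1 pair at *tkv* and 4 pairs at *shn*, against 6.13% of all pairs, a count that the choice of loci fixes.

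The median Dll peak stood below the middle of its list at *tkv* and above it at *shn*. The median Sp1 peak stood above the middle of its list at both loci. The median −log10 q of Dll peaks was 5.79 at *tkv* and 8.88 at *shn*, against 7.09 in the list, and of Sp1 peaks 7.68 at both loci, against 6.52. As percentile ranks, the median Dll peak stood at 34.8 at *tkv* and 63.9 at *shn*, and the median Sp1 peak at 62.3 at both. Below the median of their own list were 20 of 30 Dll peaks at *tkv* and 8 of 21 at *shn*. The *tkv* locus held many weak Dll peaks beside 3 in the highest 10% of the list, or 10% of its Dll peaks. At *shn* 6 of 21 Dll peaks (28.6%) and 2 of 25 Sp1 peaks (8%) were in that class. The whole lists place 10.1% of Dll and 9.89% of Sp1 peaks there. The lowest *shn* peaks were a Dll peak at 7092236 to 7092311 with 4.11 and an Sp1 peak at 7075956 to 7076020 with 4.70.

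Dll peaks that Sp1 overlapped ranked higher than those it did not. The median percentile rank was 55.9 for overlapped and 30.03 for other Dll peaks at *tkv*, and 85.0 against 19.8 at *shn*. The whole list has 69.9 and 38.0. Overlapped peaks were also longer, with medians of 419 against 259 bp at *tkv* and 662 against 144 bp at *shn*, and a longer peak has more room for an overlap. The strongest Dll peak at *shn* with no Sp1 overlap, from 7061168 to 7061852, had a value of 10.08 and lay 66 bp from an Sp1 peak.

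**Figure D3:**
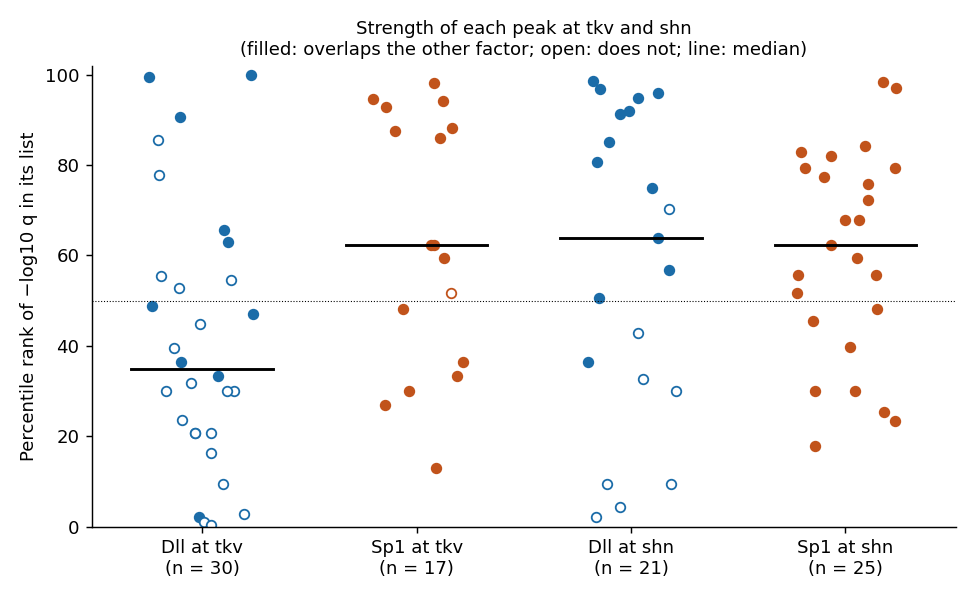
Percentile rank of each peak within its own list (0 to 100, from the −log10 q value), for Dll and Sp1 peaks at *tkv* and *shn*, with each point a peak (filled where it overlaps the other factor, open where not), each bar the median of all peaks of its column and the dotted line at the middle of the list. The medians are 34.8 for Dll and 62.3 for Sp1 at *tkv*, and 63.9 for Dll and 62.3 for Sp1 at *shn*, and most open Dll points lie low in their columns.

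Where both factors bound the same sequence, strong Dll peaks went with strong Sp1 peaks. Over the Dll peaks with an overlap, the Dll value and the highest overlapping Sp1 value had a Spearman's rho of 0.81 at *tkv* (n = 10) and 0.86 at *shn* (n = 13), against 0.34 over the whole list (n = 5304). These points are peaks of the same merged libraries, and a long peak takes the highest of several Sp1 values, so the coefficients only describe these loci. Value also went with length among all peaks of a locus. The rho was 0.43 for Dll and 0.71 for Sp1 at *tkv*, and 0.80 for Dll and 0.62 for Sp1 at *shn*. Over the whole lists it was 0.62 for Dll and 0.51 for Sp1. Within pairs, the Dll peak ranked higher in its list than the Sp1 peak did in its own in 13 of 16 pairs at *tkv* and 23 of 25 at *shn*, against 66.7% of all pairs. Pairs that share a Dll peak are not independent, and those 13 pairs come from 7 Dll peaks and those 23 from 11.

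**Figure D4:**
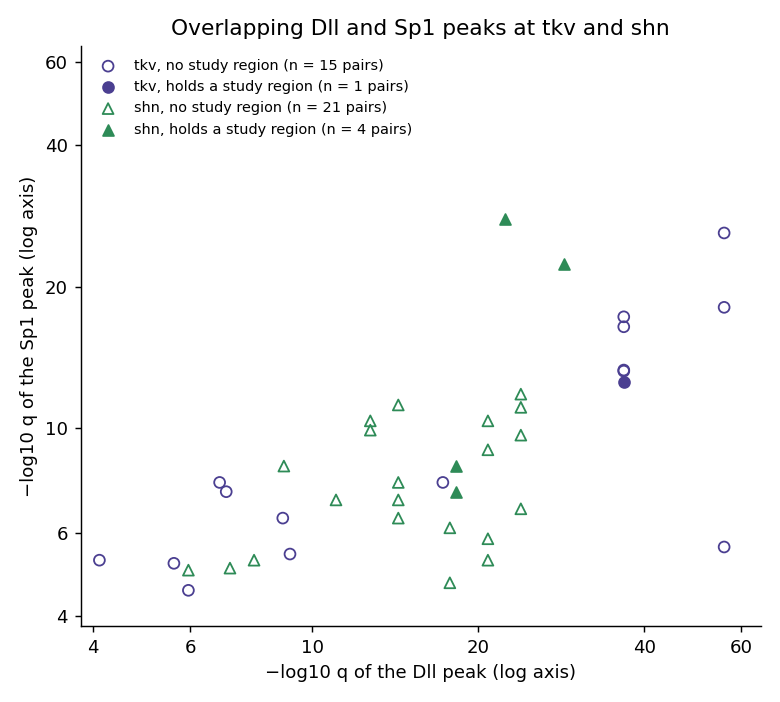
Dll −log10 q (horizontal) and Sp1 −log10 q (vertical) of the 16 overlapping pairs at *tkv* and the 25 at *shn*, both on log axes, with filled points for pairs that hold an intersection region. Pairs that share a Dll peak stand in a vertical line, and the pair furthest to the upper right, at 55.84 for Dll and 26.03 for Sp1, holds no region.

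Peaks were also counted as groups of neighbours. When peaks of either factor within 500 bp were joined, *tkv* had 11 groups, of which 6 held Dll alone and 5 held both factors, and *shn* had 8, of which 2 held Dll alone and 6 both. No group held Sp1 alone, which depends on the limits of the windows. An Sp1 peak 241 bp below the *tkv* window, with no Dll peak within 500 bp, was not counted. The *shn* window was drawn around regions that hold both factors. Over all groups of the lists, 34.3% held Dll alone, 48.8% both factors and 16.9% Sp1 alone. The largest at *tkv*, from 5250508 to 5259797 (9289 bp), held 10 Dll and 10 Sp1 peaks, and the largest at *shn*, from 7068415 to 7073637 (5222 bp), held 5 Dll and 8 Sp1 peaks. Each of these contains an intersection region. Stretches without a peak of either factor reached 11113 bp inside the *tkv* series of peaks and 4472 bp inside that of *shn*.

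Density was high in both windows, which their choice fixes. Dll peaks covered 24.1% of the *tkv* window, against 3.73% of arm 2L, and 24.2% of the *shn* window, against 4.46% of arm 2R. Sp1 peaks covered 7.87% at *tkv*, against 1.53%, and 8.94% at *shn*, against 1.81%. By number, *tkv* had 4.62 Dll and 2.62 Sp1 peaks per 10 kb, and *shn* had 3.75 Dll and 4.47 Sp1 peaks. Dll peaks thus outnumbered Sp1 peaks at *tkv* and not at *shn*. Among peaks with a −log10 q of at least 10 this order turned round at both loci. There were then 5 Dll and 7 Sp1 peaks at *tkv* and 10 Dll and 7 Sp1 peaks at *shn*. Such a cut falls at unlike places of the lists, as a Dll peak of 10.08 stands at percentile 70.3 and an Sp1 peak of 9.92 at 77.4. With no such cut, 18 Dll and 17 Sp1 peaks lay within 20 kb of the *tkv* region.

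Long stretches without Dll peaks bordered both series. The *tkv* Dll peaks spanned 48522 bp, and below them no Dll peak was called for 76424 bp, a gap that 55 of the 2131 on arm 2L reach. Above them the next Dll peak was 7094 bp away. The *shn* Dll peaks spanned 31360 bp, with 66449 bp free below and 53662 bp free above. Of the 2225 Dll gaps on arm 2R, 59 and 85 reach these lengths. Sp1 peaks at *shn* spanned 31165 bp, with 23135 bp free below and 79705 bp free above. Of the 2037 Sp1 gaps on 2R, 255 and 46 reach these. At *tkv* the Sp1 peaks had 25601 bp free below and 7107 bp above, which 224 and 550 of 1755 gaps on 2L reach. By its Dll peaks, the *shn* series thus stood apart on both sides, and the *tkv* series only on its lower side.

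The peaks on either side of the limits of the windows had values from 4.11 to 14.71. At *tkv* the last inside were the Dll peak at 5271355 to 5271427 (9.11) and the Sp1 peak at 5271357 to 5271418 (5.41). Just outside lay a Dll peak at 5278521 to 5278593 (5.96), 3521 bp past the limit, and an Sp1 peak at 5278525 to 5278587 (9.93). At the lower limit an Sp1 peak of 5.20, from 5209577 to 5209759, fell 241 bp outside, and the nearest Dll peak (9.85) was 63519 bp away. At *shn* the first peaks inside were a Dll peak of 5.96 and an Sp1 peak of 5, and the nearest outside were an Sp1 peak of 4.16, 11327 bp away, and Dll peaks of 12.34, 40811 bp away, and 14.13, 54673 bp away.

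Among the 339 genes named as nearest to an intersection region, each with the 20 kb around its regions, *tkv* and *shn* stood well up in the order for the sequence bound. Dll peaks covered 27.6% at *tkv* (place 13) and 24.2% at *shn* (place 20), against a median of 10.5%. Sp1 peaks covered 12.5% at *tkv* (place 13) and 8.94% at *shn* (place 41), against a median of 4.49%. For the highest Dll value *tkv* was in place 2 and *shn* in place 74, and for the highest Sp1 value they were in places 77 and 62. The overlapped share of Dll peaks was near the middle at *tkv*, at 55.6% in place 162, and 61.9% in place 121 at *shn*, against a median of 54.5%. Windows differ in length, and those of neighbouring genes can share peaks. Because *tkv* and *shn* were chosen with their peaks known, their places follow in part from that choice and were not tested.

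**Figure D5:**
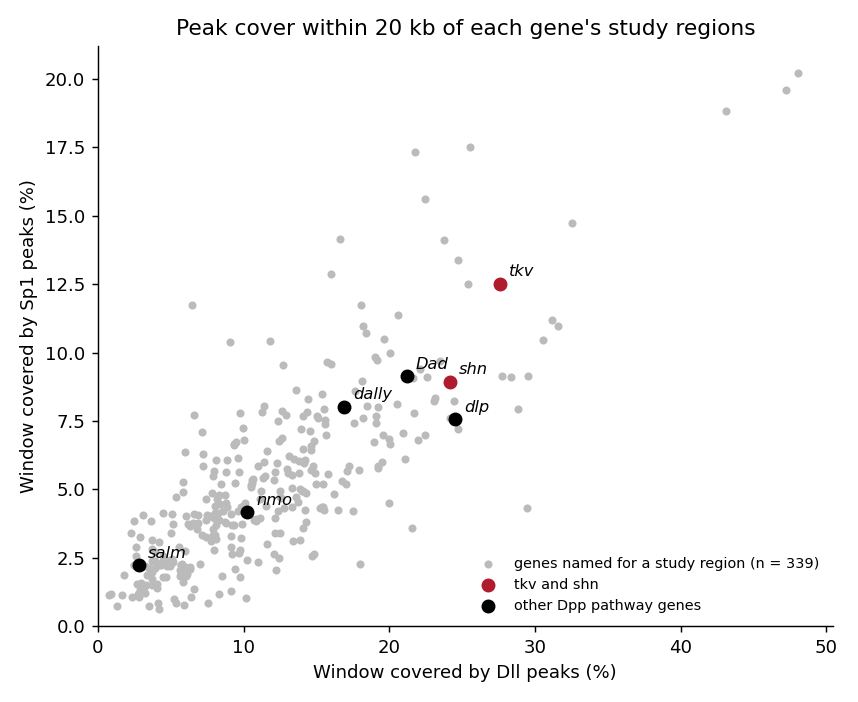
Share of each gene's window covered by Dll peaks (horizontal, percent) and by Sp1 peaks (vertical, percent) for the 339 genes named as nearest to an intersection region, with *tkv*, *shn* and the other Dpp pathway genes marked. *tkv* (27.6% for Dll, 12.5% for Sp1) and *shn* (24.2% and 8.94%) lie in the upper right part, and the medians of all genes are 10.5% and 4.49%.

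Of 25 genes listed for the Dpp pathway, 7 were named as nearest to an intersection region and 18 were not. *tkv* and *shn* were chosen for their binding, *shn* through such regions, so only the other 23 genes can be counted, of which 5 were named, against 2.29% of the protein coding genes of the RefSeq table. The list was drawn up with earlier results known, and this share was not tested. The type I receptor *tkv* was the only receptor named, as *sax*, *put* and *wit* were not. The list holds no nuclear partner other than *shn*. The ligands *dpp*, *gbb* and *scw*, the Smads *Mad* and *Med*, and the target genes *brk*, *bi* and *salr* were not named either. Nor were *cv-2*, *tld*, *tok*, *sog*, *tsg*, *Smurf* and *magu*. The remaining named genes were the inhibitory Smad *Dad*, the target gene *salm*, the glypicans *dally* and *dlp*, which bind Dpp outside the cell, and the kinase *nmo*. A gene that is not named may still have Dll or Sp1 peaks, which could not be counted without gene positions in this build.

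The region of *tkv* had the highest Dll value of these genes and the fourth region of *shn* the highest Sp1 value. Both genes were chosen for their binding, and *shn* has 4 regions against 1 for each other named gene, so this order is only a description. Dll and Sp1 values were 36.72 and 12.56 at *tkv*, and ran from 18.25 to 28.61 and from 7.34 to 27.90 at *shn*. At *Dad*, from 12881866 to 12882638 on 3R, they were 6.75 and 15.06. At *salm*, from 11445668 to 11446334 on 2L, they were 17.87 and 18.09. *Dad* was the only gene of the 7 whose Dll peak ranked below the middle of its list, at percentile 46.8. At *dally*, from 8815665 to 8816461 on 3L, the values were 13.77 for Dll and 15.06 for Sp1. At *dlp*, from 14630000 to 14630238 on 3L, they were 20.82 and 9.01, and at *nmo*, from 8007182 to 8007447 on 3L, 14.84 and 13.31. The number of peaks within 20 kb ranged widely, with 18 Dll and 17 Sp1 peaks at *tkv*, 18 and 15 at *Dad*, 21 and 17 at *dlp*, 11 and 17 at *dally*, 8 and 10 at *nmo* and only 2 and 3 at *salm*.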

How the data were processed

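The deposited lists give a chromosome, a start, an end and a −log10 q value for each peak, which the authors produced with BWA alignment to dm3 and peak calling with MACS2 (2.0.9 in the submitters' processing notes) on merged ChIP libraries against input. The lowest −log10 q of either list is 4.00. Read counts are not part of them, so the depth per sample is unknown. Coordinates are those of the lists, and starts were read as counted from 0, which the lists do not state.

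No reads were processed again. Members, gene lists and measures were chosen with earlier results of these data known. A shared length of at least 1 bp counted as an overlap. Percentile ranks were taken within each list with tied values averaged, and shares have 95% Wilson intervals. Peaks were named by rule: those at intersection regions of *tkv* or *shn*, the 3 highest and the lowest of each factor at each locus, and the highest without an overlap. Peaks overlapped by 4 Sp1 peaks, the first 14 Dll peaks of *tkv* and peaks beside the limits of the windows were added after their values were seen. The intersection regions were taken from the study and their motif and accessibility filters were not repeated. A search for motifs was planned and not run, since a genome of this build was not used here, and no sequence is shown. All 25 genes of the Dpp list matched the RefSeq gene table of Release 6. Comparisons were made with pandas 2.3.3, numpy 2.4.6, statsmodels 0.14.6 and scipy 1.17.1 under Python 3.11.15, figures in matplotlib 3.10.9, and the counting steps were first tested on simulated data. No test between conditions was made, and 80 alternative values were computed with other thresholds, windows, overlaps and joining of peaks.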

Additional observations from a re-analysis of the deposited data

How the results depend on the processing

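Of 80 alternative values for 12 results, 59 stayed within 1.5 times (counts) or within the interval of the value (shares and ranks), and 21 did not. Some outcomes were fixed in advance, since starts counted from 1 leave ranks as they are and a higher cut cannot lower the median rank. The tally is therefore no measure of how stable the results are. With a −log10 q of at least 6, Dll peaks at *tkv* numbered 14 and their median rank in the whole list was 59.3. With at least 10, *tkv* had 5 Dll peaks (median rank 90.6) and 7 Sp1 peaks (92.9, 100% overlapped), and *shn* had 10 Dll peaks (91.5) and 7 Sp1 peaks (82.9). Joining peaks of a factor within 500 bp left 12 Dll and 8 Sp1 peaks at *tkv*, and 8 Dll and 9 Sp1 peaks at *shn*. Within 20 kb of the region of *tkv*, 18 Dll peaks were counted and 55.6% were overlapped. When an overlap had to fill 50% of both peaks, 6.67% of Dll and 11.8% of Sp1 peaks at *tkv* had one, and 19.0% of Dll and 16% of Sp1 peaks at *shn*, since small Sp1 peaks inside long Dll peaks no longer counted. Leaving out a replicate could not be run, because each list comes from merged libraries. No paired analysis was possible because the lists carry no values of single libraries. A count of peaks thus depends on the authors' threshold and on how neighbouring calls were split, and does not give the number of binding sites.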

Other observations

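Runs of Dll peaks that no Sp1 peak overlapped were compared with the 14 at *tkv*. With Dll peaks of a run no more than 5 kb apart, the lists gave 3793 runs, of which 14 held 14 or more peaks, with 12 on chromosome 4 and 2 elsewhere, the *tkv* run included. With no limit on the distance, the *tkv* run began below the window and held 17 peaks, and 15 of 2645 runs held as many, with 11 on chromosome 4 and 4 elsewhere. Both definitions were chosen after the values at *tkv* were seen, so its place among these runs is a description.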
